A study of Arabidopsis thaliana with 35 samples.

Results

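The response of unwounded wild-type shoot apexes to 2,4-D, a herbicide that acts as an auxin, was read from 6 of the 35 RNA-sequencing libraries of the series. They are the 3 libraries of 2,4-D-treated wild type (WT-A) and the 3 of mock-treated wild type (WT-M), chosen by their genotype and treatment and by no measured value, with every gene included. All of these plants were Col-0, grown in vitro under long days for 14 days on medium with sucrose and then left intact, so that neither group was wounded. The seedlings of WT-A were moved to plates with 5 µM 2,4-D for 55 hours and those of WT-M to plates with the solvent DMSO for the same time. What was sampled was the shoot apex with the bases of the leaves, where axillary meristems lie, and the leaf blades, cotyledons and roots were discarded. Each library so holds RNA of meristem, boundary, young leaf and vascular cells together. The mutants below were picked as homozygotes among the progeny of *clf*/+ *swn* plants, since they set no seed. For 2 further comparisons the text also uses wild-type explants cut from the seedlings and given the same 2,4-D treatment (WT-WA) and intact *clf-29 swn-3* seedlings, which lack the Polycomb methyltransferases CURLY LEAF and SWINGER, given 2,4-D (*cs*-A) or mock (*cs*-M), each with 3 libraries.

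Auxin acts through F-box receptors of the TIR1 and AFB family, which bind Aux/IAA repressor proteins in the presence of auxin and mark them for degradation. The AUXIN RESPONSE FACTOR (ARF) proteins that the repressors held are then free to activate their targets. Among the targets are the *Aux/IAA* genes themselves, the *GH3* genes, whose enzymes join auxin to amino acids and so inactivate it, many small *SAUR* genes, and *LBD* transcription factor genes that start lateral roots. 2,4-D (2,4-dichlorophenoxyacetic acid) mimics the natural auxin indole-3-acetic acid but is removed from cells less readily. In regeneration work it is used to induce callus, which in Arabidopsis forms along a pathway close to that of a lateral root, and wild-type shoot tissue of this age is known to give callus rather than embryos.

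ARF proteins are known to bind the element TGTCTC and its variant TGTCGG. Both motifs were looked for, on either strand, in the 250 bases before the annotated start of each gene in the TAIR10.1 genome of RefSeq. Of 28000 nuclear genes, 14.7% held at least 1 of them, 10.9% TGTCTC and 4.19% TGTCGG. The share was 15.6% among the genes that were higher in WT-A and 15.5% among those that were lower. It was 9 of 20 for the *Aux/IAA* genes that were higher, 3 of 7 for the *GH3* genes, 3 of 10 for the lateral root founder genes and 8 of 43 for the *SAUR* genes. *IAA3*, which the founder list holds as *SHY2*, is counted in both the *Aux/IAA* and the founder share. The upstream sequences of 4 genes of these lists, which were chosen because they hold a motif, are printed 5′ to 3′ on the strand of the gene with each motif in capitals. CCGACA is TGTCGG read on the other strand. *IAA19* lies at chr3:5263751-5264000, plus strand, *IAA5* at chr1:5366498-5366747, minus strand, *GH3.3* at chr2:9866563-9866812, minus strand, and *GATA23* at chr5:9479174-9479423, plus strand, these being the positions of the printed bases.
IAA19: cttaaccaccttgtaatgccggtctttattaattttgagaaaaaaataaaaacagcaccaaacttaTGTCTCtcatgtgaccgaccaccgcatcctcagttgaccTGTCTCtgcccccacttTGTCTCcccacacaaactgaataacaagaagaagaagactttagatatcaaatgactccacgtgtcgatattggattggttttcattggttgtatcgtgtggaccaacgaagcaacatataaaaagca
IAA5: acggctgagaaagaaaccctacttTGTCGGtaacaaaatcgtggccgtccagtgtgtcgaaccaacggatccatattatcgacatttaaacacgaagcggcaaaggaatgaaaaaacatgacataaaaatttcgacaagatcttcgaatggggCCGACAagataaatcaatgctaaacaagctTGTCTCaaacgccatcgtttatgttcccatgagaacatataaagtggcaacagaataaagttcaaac
GH3.3: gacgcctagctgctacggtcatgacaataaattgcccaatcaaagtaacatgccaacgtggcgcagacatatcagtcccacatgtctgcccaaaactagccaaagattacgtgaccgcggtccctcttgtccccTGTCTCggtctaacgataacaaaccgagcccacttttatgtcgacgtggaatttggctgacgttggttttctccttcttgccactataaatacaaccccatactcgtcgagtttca
GATA23: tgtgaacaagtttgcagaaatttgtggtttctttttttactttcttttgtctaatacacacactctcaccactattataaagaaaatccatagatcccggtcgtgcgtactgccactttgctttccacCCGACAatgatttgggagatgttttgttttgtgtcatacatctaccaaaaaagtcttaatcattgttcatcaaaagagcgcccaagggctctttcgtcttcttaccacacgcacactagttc
*IAA19* held TGTCTC at 3 places, *IAA5* held TGTCTC once and TGTCGG at 2 places, *GH3.3* held TGTCTC once and *GATA23* held TGTCGG once. *IAA29*, *GH3.1* and *MAKR4*, the genes with the largest change of their lists, held neither motif in this window. A match here is a description of the letters and not a binding site.

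The libraries held 13899182, 15186325 and 14727392 counted reads in WT-A and 12952973, 18094983 and 14492273 in WT-M. Levels are given as CPM, the count of a gene over the sum of counts of its library, scaled so that each library sums to the same total, for replicates 1, 2 and 3 in that order. Of 28775 genes counted, 21115 had enough counts to be tested. A gene was called when the edgeR adjusted p was under 0.05 and the log2 fold change was at least 0.6 in size. By this rule 4156 genes, 19.7% of those tested, were higher in WT-A and 4370 genes, 20.7%, were lower, and the median log2 fold change over all tested genes was near 0. The change was at least 4-fold for 1575 of the higher and 1196 of the lower genes, and at least 32-fold for 344 and 96. No count was found in any WT-M library for 148 of the higher genes, and in any WT-A library for 38 of the lower ones. The 2 groups did not overlap for 4012 of the higher and 4234 of the lower genes, against 33.4% and 32.6% of all tested genes that did not overlap in each direction. These shares are the background against which the lists of genes were read, since a large part of all tested genes was called.

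Markers of cell types moved with the treatment. The 10 genes that mark leaf photosynthetic tissue were all lower in WT-A, with a summed level of 2301 to 3340.1 CPM against 13047 to 15586 CPM in WT-M. All 6 trichome markers were lower as well, from a sum of 27.3 to 31.9 CPM to one of 3.95 to 6.33 CPM. Of 5 tested guard cell genes, the lineage regulators *SPCH*, *MUTE* and *FAMA* were lower and *KAT1* and *MYB60*, which mark mature guard cells, were higher. Of 7 phloem markers *SUC2* was higher and *SEOR1*, *SEO-A* and *NAKR1* were lower, the sum being 114 to 148 CPM in WT-M and 129.9 to 174 CPM in WT-A. A single pollen and stamen marker, *AMS*, had enough counts to be tested. In the shoot, 2 of the 9 meristem and boundary markers were higher and 5 lower. Of 11 root markers, 6 were higher and 2 lower, with a sum of 73.0 to 92.7 CPM in WT-M and 133 to 143 CPM in WT-A. *PLT1*, *PLT2*, *FEZ*, *COBL9* and *EXPA7* were at 0 in all 3 WT-M libraries, and *CASP1* was at 0 in all 3 WT-A libraries. The labels name the tissue as stem, while the extraction notes give regions around the apical and axillary meristems. The shoot meristem gene *STM* stood at 68.7, 68.6 and 90.0 CPM in WT-M and 83.7, 91.0 and 83.3 CPM in WT-A. The libraries also differed in ribosomal RNA, whose 4 nuclear genes took 3.24% of counts in WT-A replicate 2, against 0.406% and 1.11% in the other WT-A libraries and 0.150% to 0.331% in WT-M. Without WT-A replicate 2 the counts of called genes were 3848 higher and 4147 lower. In such bulk samples fewer cells of a type and less RNA in each of those cells cannot be told apart.

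The repressors of the auxin pathway rose broadly. In the *Aux/IAA* list, 20 of the 28 tested genes were called higher and 0 lower (median log2 fold change 1.97). *IAA29* had 0.386, 0.387 and 0.483 CPM in WT-M and 322, 311 and 319.6 CPM in WT-A, a log2 fold change of 9.53 ± 0.31 (SE, n = 3 against 3, edgeR adjusted p = 2.65e-19). *IAA5*, whose upstream sequence is printed above, had 0.386, 1.05 and 0.690 CPM in WT-M and 65.9, 62.8 and 64.9 CPM in WT-A, a log2 fold change of 6.43 ± 0.36 (SE). For both genes the 3 WT-A libraries lay within a narrow band far above every WT-M library. *IAA19*, a repressor of hypocotyl bending and growth, went from 2.32, 5.08 and 5.87 to 269.9, 259.9 and 299 CPM (5.94 ± 0.30, SE, on the log2 scale). *IAA20*, a member without the degron that the receptors recognise, went from 0.772, 0.387 and 0.138 to 17.1, 25.3 and 24.8 CPM (5.70 ± 0.37, SE). Smaller rises were seen in members with a high level under mock, such as *IAA9* from 392 ± 22.1 to 1443 ± 166 CPM (mean ± SD) and *IAA16* with a log2 fold change of 0.74. The 8 members that were not called had log2 fold changes from -0.60 in *IAA15* to 0.38 in *IAA12*.

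Among the *ARF* transcription factor genes, 1 of the 15 tested genes was called higher and 4 lower (median -0.37). *ARF18* fell from 51.9, 47.3 and 55.5 CPM in WT-M to 14.3, 8.17 and 9.98 CPM in WT-A, a log2 fold change of -2.26 ± 0.22 (SE, edgeR adjusted p = 5.15e-10), and both *ARF11* (-1.41) and *ARF1* (-0.82) fell. *ARF19*, which with *ARF7* drives the start of lateral roots, was the only member called higher, from 31.7, 35.4 and 28.4 to 64.5, 57.0 and 61.0 CPM (0.93 ± 0.19, SE). *ARF5*, which acts in vascular and embryonic root patterning, had 113, 110.3 and 109 CPM in WT-M and 135, 148 and 118 CPM in WT-A. Its groups did not overlap, but the log2 fold change of 0.26 was under the size the call requires. The receptor gene *TIR1* fell from 199, 202 and 189 to 86.5, 85.6 and 83.7 CPM (-1.21 ± 0.14, SE, edgeR adjusted p = 1.37e-08). *AFB2* fell from 71.3, 75.4 and 80.8 to 49.1, 46.2 and 51.5 CPM, with a log2 fold change of -0.64 that was just past the threshold and became -0.59 when only genes with at least 10 counts in every library compared were kept. The other 4 receptor genes had log2 fold changes from -0.56 (*AFB5*) to 0.48 (*AFB1*) and were not called.

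Genes that join auxin to amino acids rose and most of those that make it fell. *DAO1* and *DAO2*, also listed for auxin inactivation, matched no counted gene by name, so their route was not seen. Of the *GH3* genes, 7 of the 8 tested genes were called higher and 0 lower (median 3.65). *GH3.1* had 0.772, 0.608 and 0.207 CPM in WT-M and 143, 157 and 169 CPM in WT-A (8.18 ± 0.31 on the log2 scale, SE, edgeR adjusted p = 4.61e-18). *GH3.3* stood at 32, 46.9 and 27.9 CPM in WT-M and at 3309, 2793 and 3346 CPM in WT-A (6.46 ± 0.35, SE). *GH3.2* and *GH3.4* had log2 fold changes of 5.10 and 4.77, *GH3.9* was just past the threshold at 0.604, and no member was lower. In the biosynthesis list, 1 of the 9 tested genes was called higher and 6 lower (median -3.05). *TAA1*, whose enzyme makes the indole-3-pyruvate precursor, fell from 11.6, 9.56 and 9.80 to 1.65, 0.922 and 1.09 CPM (-3.08 ± 0.34, SE). *YUC1*, a flavin monooxygenase gene that completes auxin synthesis, had 4.17, 2.93 and 3.66 CPM in WT-M and a single count in WT-A, so that its level was lower by 154-fold (95% counting interval 27.2 to 6117). *YUC6* (-4.45) and *YUC4* (-3.05) fell too, while *YUC3* rose by 1.74 from 0.907 ± 0.351 to 3.01 ± 0.688 CPM (mean ± SD). The *YUC3* call was lost without WT-M replicate 2, which left no member of the list higher.

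The transport list divided, with 8 of 17 tested genes higher, 5 lower and a median log2 fold change of 0.03. *ABCB4*, an auxin transporter known from root epidermis, rose from 10.6, 9.62 and 13.3 to 100.2, 121 and 118 CPM (3.34 ± 0.25, SE, edgeR adjusted p = 3.21e-12). *PIN7*, an efflux carrier, rose from 133, 89.3 and 70.0 to 348, 335 and 369 CPM (1.84), and *WAG2*, a kinase that controls where PIN carriers are placed, rose by 2.62 on the log2 scale. The influx carrier gene *LAX3* fell from 23.5, 21.8 and 29.0 to 6.40, 4.68 and 10.3 CPM (-1.81). The *SAUR* family, whose small proteins promote cell expansion, had 43 of 64 tested members higher and 8 lower (median 1.72). *SAUR10* went from 0.309, 0.166 and 0.138 to 24.7, 12.8 and 22.6 CPM (6.58) and *SAUR68* (AT1G29490) from 0.154, 0.221 and 0 to 12.9, 5.93 and 11.5 CPM (6.17). For *SAUR25*, with 2 counts in all under mock, WT-A was higher by 121-fold (95% counting interval 33.0 to 1002), and *SAUR71* had a log2 fold change of 4.41. In each of these *SAUR* genes the lowest WT-A library lay above the highest WT-M library.

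**Figure D1:**
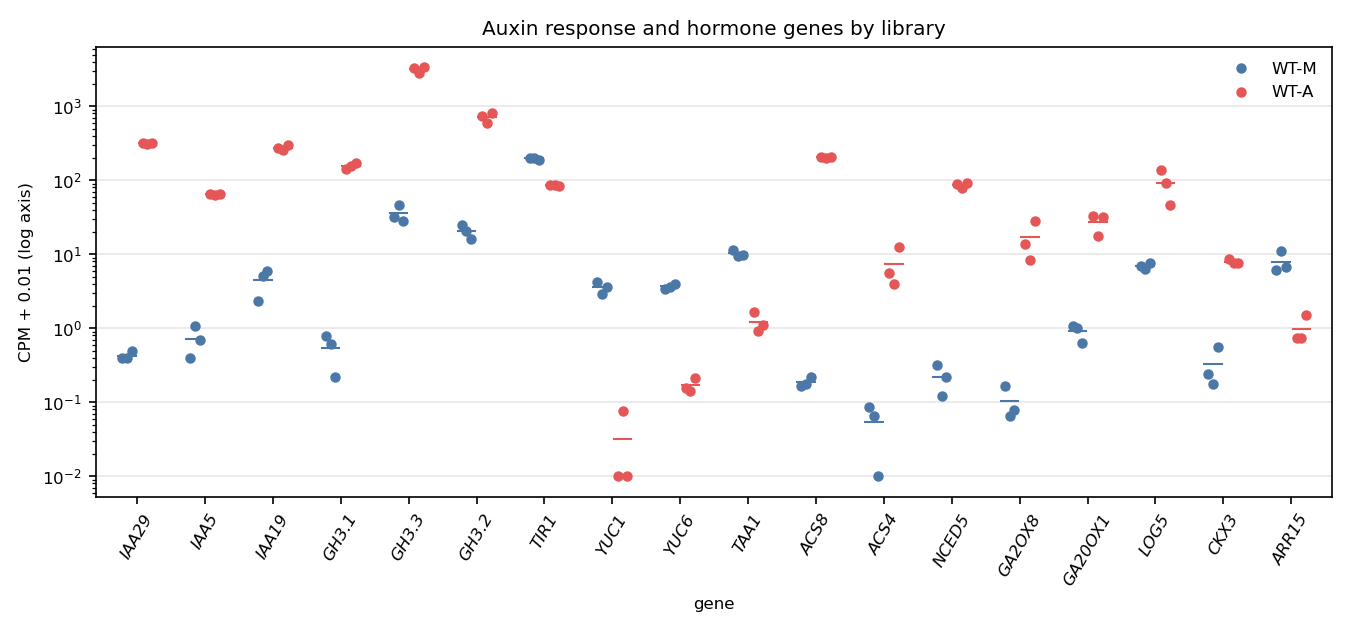
Level of 18 auxin response and hormone genes in each library, as CPM + 0.01 on a log axis, with WT-M in blue, WT-A in red, 1 point per library and a dash at the mean of 3. The points of *IAA29* lie at 0.386 to 0.483 CPM in WT-M and 311 to 322 CPM in WT-A, and those of *TIR1* and the *YUC* genes lie lower in WT-A.

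Genes that found lateral roots were among those with the largest changes. In the list of LBD and founder factors, 10 of the 11 tested genes were called higher and 1 lower. *SHY2*, among the higher ones, is the same gene as *IAA3* and is also counted in the *Aux/IAA* list. The median log2 fold change of the founder list was 7.73, or 6.22 when genes at 0 in one group were set at their lower bound. A bound was taken against 3 counts over the 3 libraries of the group at 0. *MAKR4*, which acts where a pre-branch site becomes a lateral root, had 0.154, 0.221 and 0.0690 CPM in WT-M and 197, 221 and 206 CPM in WT-A (10.32 ± 0.34, SE, edgeR adjusted p = 1.84e-18). *LBD16*, a target of ARF7 and ARF19 that starts founder cell division, had 0.0772, 0.166 and 0.138 CPM in WT-M and 36.8, 35.8 and 39.9 CPM in WT-A (8.06 ± 0.34, SE, edgeR adjusted p = 4.41e-17). *LBD18* went from 0.386, 0.276 and 0.414 to 17.4, 16.8 and 17.7 CPM (5.57). *LBD29* had no count under mock and 4.60, 4.08 and 6.04 CPM with 2,4-D, at least 74.5-fold higher. *GATA23*, which specifies founder cells and whose upstream sequence is printed above, had 0, 0.0553 and 0.138 CPM in WT-M and 33.1, 33.8 and 43.1 CPM in WT-A, higher by 557-fold (95% counting interval 190.4 to 2706). *LBD17* was higher by 438-fold (95% counting interval 78.1 to 17325), from 1 count in WT-M. These ratios and their intervals cover counting error only. The exception was *RALFL34*, a peptide gene, which fell from 139.5 ± 10.3 to 60.3 ± 10.036 CPM (mean ± SD).

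Regulators of the root stem cell niche rose with them. *PLT1* and *PLT2*, AP2 transcription factors that set up the root meristem, had no count in any WT-M library. In WT-A *PLT1* stood at 12.2, 12.7 and 10.2 CPM, at least 177-fold higher, and *PLT2* at 5.04, 4.54 and 5.50 CPM, at least 76.2-fold higher. *BBM*, a related gene that can induce embryos when overexpressed, had 0.0772, 0.0553 and 0 CPM in WT-M and 8.71, 4.94 and 4.21 CPM in WT-A, higher by 134-fold (95% counting interval 36.7 to 1113). *PLT3* rose from 21.7, 20.3 and 27.7 to 90.9, 115 and 95.1 CPM (2.11). Of the 7 PLETHORA and AINTEGUMENTA-like genes 5 were higher, and *ANT*, which drives the growth of lateral organs, was the single lower member, from 139 ± 7.33 to 43.8 ± 8.24 CPM (mean ± SD). The *WOX* homeobox family split, with 6 of 13 higher and 5 lower (median 0.34). *WOX11*, known for starting new roots from leaf explants, went from 0.386, 0.553 and 0.345 to 189.9, 239 and 244 CPM (8.97 ± 0.31, SE, edgeR adjusted p = 6.49e-19). *WOX5*, which holds the root quiescent centre, went from 2.55, 2.65 and 2.83 to 29.9, 30.027 and 28.0 CPM (3.44 ± 0.20, SE, edgeR adjusted p = 1.40e-14). Its close relative *WOX7* was higher by 34.3-fold (95% counting interval 9.13 to 289). The *WOX* genes of shoot and embryo went the other way, with *WUS* at 0.618, 0.442 and 0.828 CPM in WT-M and 0.0719, 0 and 0.0679 CPM in WT-A and *WOX9* at -3.26 on the log2 scale. The other lower members, *WOX1*, *WOX2* and *WOX3*, had log2 fold changes of -3.18, -2.42 and -2.22.

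Among other root tip genes, 9 of the 18 tested genes were called higher and 5 lower (median 0.89). *RGF2* and *RGF8*, which encode peptides that maintain the root meristem, had no count in WT-M and 5.32, 5.07 and 4.28 CPM and 23.9, 25.2 and 20.1 CPM in WT-A, at least 74.1-fold and 350.3-fold higher. *TMO7* and *TMO6*, targets of ARF5 in the embryo, were both higher. *TMO7* had 1 count in WT-M and 13.2, 11.9 and 8.76 CPM in WT-A, higher by 511-fold (95% counting interval 91.4 to 20239.6), and *TMO6* went from 30.4, 30.7 and 22.6 to 176, 219 and 167 CPM (2.74 ± 0.23, SE). *SMB*, a NAC factor of the root cap with 1 count under mock, was higher by 327-fold (95% counting interval 58.3 to 12973). *UPB1*, a bHLH factor at the border between root cell division and differentiation, was uneven under mock, at 3.01, 0.387 and 0 CPM, and stood at 17.1, 19.5 and 12.4 CPM in WT-A (3.91). Genes of the root endodermis lineage did not follow, since *SCR* fell from 53.0 ± 6.56 to 27.1 ± 3.93 CPM (mean ± SD) while *SHR*, its activator, rose by 1.13. *ACR4*, a receptor kinase of the root cap, was lower (-1.02), as were *MGP* (-1.72) and *JKD* (-0.61), zinc finger partners of *SHR* and *SCR*. *BRN1*, a root cap gene, and *WIP5* were near the floor in both groups and not called. The count of lower genes, 5, was 3 without WT-A replicate 1 and 2 without WT-A replicate 2.

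Root differentiation genes rose in part. Of the suberin and Casparian strip genes, 13 of 21 tested were higher and 2 lower (median 2.72). The higher ones were mostly enzymes of the suberin polymer. *FAR4* went from 0.849, 1.05 and 0.690 to 30.1, 28.4 and 23.4 CPM (4.95 ± 0.37, SE) and *FAR5* from 1.08, 1.22 and 1.52 to 26.2, 36.9 and 33.4 CPM (4.65), both fatty acyl reductases. *GPAT7*, an acyltransferase known from wound suberin, was higher by 35.9-fold (95% counting interval 9.56 to 302), and *MYB93*, a root endodermis regulator, rose by 4.15 on the log2 scale. *CASP1*, whose membrane protein helps to place the Casparian strip, fell from 0.431 ± 0.141 CPM (mean ± SD) to 0. In the root hair list, 6 of the 14 tested genes were called higher and 2 lower, with a median of 2.24, or 0.95 with genes at 0 set at their bound. The fitted median was 1.39 without WT-A replicate 2 and 2.59 without WT-A replicate 3, and with the 6 libraries alone it was 1.09 with 3 genes higher. *RHD6*, the bHLH factor that starts root hairs, had 1 count in WT-M and 21.2, 28.2 and 24.1 CPM in WT-A, higher by 1120.5-fold (95% counting interval 201 to 44298). A related factor of hair growth, *LRL2*, went from 3.78, 4.48 and 5.31 to 21.4, 25.9 and 20.031 CPM (2.3). Genes of the growing hair stayed close to 0, with *EXPA7* and *COBL9* at a mean of 0.0919 and 0.0939 CPM in WT-A, near the floor of 3 counts. *GL2*, which specifies trichomes in the shoot and hairless cells in the root, fell by 2.24 on the log2 scale. *WRKY44*, a trichome gene also known as *TTG2*, fell by 1.95.

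In the xylem list, 7 of the 20 tested genes were called higher and 5 lower, with 3 lower without WT-A replicate 2 or WT-M replicate 1 (median 0.025). *VND1*, *VND2* and *VND3*, early regulators of vessel fate, rose by 2.65, 1.94 and 1.71, with *VND1* at 1.31, 1.66 and 0.966 CPM in WT-M and 7.34, 9.55 and 8.22 CPM in WT-A. *WOX4*, which keeps the cambium dividing, rose from 9.42, 14.4 and 15.9 to 34.7, 35.5 and 40.9 CPM (1.47). Other regulators of the list were lower, *VND6* at -1.13, *MYB83* at -1.73 and *XND1*, which holds back vessel formation, at -1.22, each at a mean of under 3 CPM in both groups. *XCP1* and *XCP2*, proteases of dying vessel cells, were lower at -0.82 and -1.13, and the cellulose synthase genes *CESA4*, *CESA7* and *CESA8* were not called at -0.034, -0.14 and 0.056.

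Shoot meristem genes changed unevenly. Of 15 tested genes, 3 were higher and 7 lower (median -0.49). The homeobox gene *STM*, which keeps the meristem undifferentiated and whose values are given above, overlapped between the groups and had a log2 fold change of 0.18 ± 0.12 (SE, edgeR adjusted p = 0.208). *WUS*, which holds the shoot stem cells, fell from 28 counts in WT-M to 2 in WT-A, lower by 13.5-fold (95% counting interval 3.4 to 117). *CLV1*, the receptor kinase that limits the stem cell pool, fell from 54.7, 49.959 and 67.3 to 12.1, 11.6 and 14.9 CPM (-2.16 ± 0.15, SE, edgeR adjusted p = 5.25e-13). *ATH1*, a BELL homeobox gene of the rosette meristem, fell from 76.0, 59.2 and 63.3 to 8.78, 5.73 and 6.72 CPM (-3.23). *BAM2*, a relative of *CLV1*, fell by 1.19, while *CRN*, which encodes a partner of the CLV2 receptor, rose by 1.22. The homeobox genes *KNAT1* (0.71) and *KNAT6* (0.78) were the other members called higher. *CLV3*, the stem cell peptide gene, was filtered out as too low to test. Boundary genes were lower more often than higher, 6 against 2 of 13 (median -0.96, or -0.63 without WT-A replicate 3). *CUC2* had 4.25, 3.09 and 4.21 CPM in WT-M and 0.863, 0.856 and 1.02 CPM in WT-A (-2.06 ± 0.24, SE), and *CUC3* had 4.01, 3.59 and 9.38 CPM and 0.935, 0.395 and 0.815 CPM (-2.98 ± 0.44, SE). Their relative *CUC1* overlapped between groups, at 3.01, 2.43 and 5.45 CPM and 1.87, 2.77 and 2.58 CPM (edgeR adjusted p = 0.152). *LOB*, a boundary gene, fell by 1.87, and *LAS*, which starts axillary meristems, rose by 1.09. *DRNL*, which marks organ founder cells and is also known as ESR2, rose from 0.463, 0.276 and 0.690 to 1.80, 2.11 and 2.58 CPM (2.19 ± 0.47, SE). *DRN* overlapped between the groups at 1.00, 0.276 and 0.621 CPM in WT-M and 0.719, 0.856 and 1.63 CPM in WT-A (edgeR adjusted p = 0.142), although it passed the test without WT-M replicate 1 (1.28, edgeR adjusted p = 0.045).

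Leaf development genes fell together. In the list of leaf polarity and growth, 2 of the 26 tested genes were called higher and 19 lower, a median log2 fold change of -1.94. *TCP4* and *TCP10*, which bring leaf cells out of division, went from 35.1, 39.7 and 41.5 to 4.03, 2.83 and 4.21 CPM (-3.4 ± 0.22, SE, edgeR adjusted p = 1.54e-13) and from 20.8, 24.1 and 23.5 to 2.81, 1.45 and 4.01 CPM (-3.06). *YAB3*, a gene of the lower leaf side, fell from 65.2, 62.7 and 67.3 to 9.64, 6.91 and 10.9 CPM (-2.83). All 6 tested growth-regulating factor genes were lower, with *GRF6* at -2.96, and so was their coactivator *AN3*, from 106 ± 12.7 to 27.8 ± 5.65 CPM (mean ± SD). The 2 members that rose were *PHB*, a gene of the upper leaf side that also acts in vascular tissue, by 1.21, and *KAN4*, by 1.36. The leaf markers given above fell at the same time, and their part in these changes was not tested.

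Floral regulators were also mostly lower, 12 of 20 tested with 3 higher (median -0.79). *AP1*, which specifies floral meristems, fell from 7.49, 5.69 and 4.83 to 0.719, 0.790 and 0.136 CPM (-3.43 ± 0.72, SE). *AP3* (-4.45) and *SEP1* (-2.88), which give petals and floral organs their identity, were at a few CPM or less under mock. *SHP1* (1.72) and *SHP2* (2.02), genes of fruit and ovule identity, were higher. *FT*, the mobile flowering signal, was higher but low in both groups, at 0, 0.221 and 0.207 CPM in WT-M and 0.863, 0.724 and 1.77 CPM in WT-A (2.80). Embryo transcription factors were 5 higher (3 without WT-M replicate 1 or WT-M replicate 3) and 1 lower of 11, and the median of 0.96 became 0.38 with genes at 0 set at their bound. *AGL15*, a MADS gene that favours embryogenesis, rose from 5.64, 5.91 and 6.76 to 18.1, 23.6 and 22.1 CPM (1.80 ± 0.26, SE, edgeR adjusted p = 6.74e-07), and *EEL*, a bZIP factor of seed maturation, rose by 1.12. *LEC1*, a master regulator of embryogenesis, had no count in WT-M and 13 counts over WT-A (0.360, 0.329 and 0.204 CPM), at least 4.50-fold higher and still below 1 CPM. *LEC2* had 3 counts in WT-A and none in WT-M, at least 1.04-fold higher, and was not called (edgeR adjusted p = 0.0634), except without WT-A replicate 2 (edgeR adjusted p = 0.0351). *FUS3* and *ABI4* were near the floor in both groups and not called (edgeR adjusted p = 0.525 and 0.399). *ABI3*, which acts with *LEC1* and *FUS3* in seed maturation, was called at 0.98 ± 0.36 (SE) with groups that overlapped, 0.386, 1.05 and 0.552 CPM against 1.01, 1.78 and 1.36 CPM. The call was lost without WT-A replicate 2 (adjusted p = 0.124 in edgeR), WT-M replicate 1 or WT-M replicate 3. *ABI5*, a bZIP factor of abscisic acid signalling, went from 9.26, 13.5 and 12.1 to 29.7, 22.9 and 16 CPM (0.96) and lost its call without WT-A replicate 1 (0.74, edgeR adjusted p = 0.143), WT-A replicate 2, WT-M replicate 1 or WT-M replicate 3. Of the seed storage and oil body genes none of 13 was called higher and 1 lower, the oleosin gene *OLEO4* (-2.20). The count of lower genes was 3 without WT-A replicate 3 and 2 without WT-M replicate 1 or WT-M replicate 3.

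**Figure D2:**
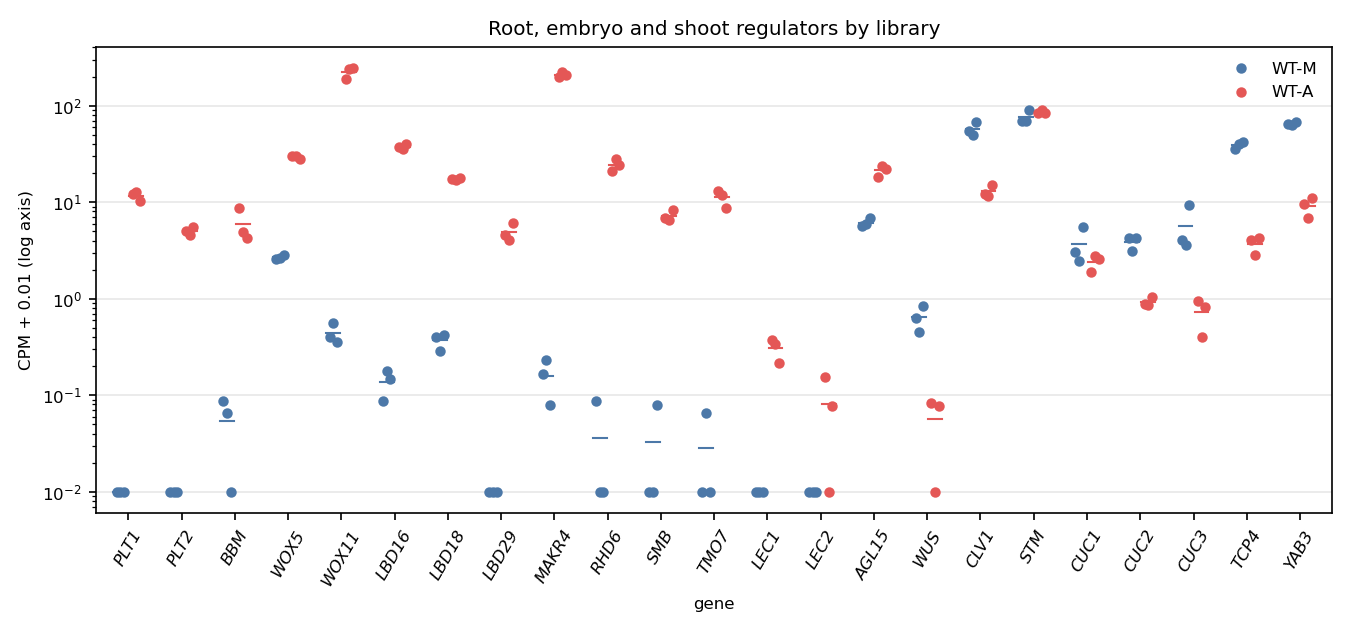
Level of 23 root, embryo and shoot regulators in each library, as CPM + 0.01 on a log axis, with WT-M in blue, WT-A in red, 1 point per library and a dash at the mean of 3. Points at the bottom are libraries with no count, as for *PLT1*, *PLT2* and *LBD29* in WT-M, and the *STM* points of both groups overlap at 68.6 to 90.0 CPM and 83.3 to 91.0 CPM.

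The Polycomb genes were not called. *CLF* had 39.1, 40.6 and 39.1 CPM in WT-M and 38.9, 41.0 and 38 CPM in WT-A, and *SWN* had 56.4, 53.0 and 53.5 CPM and 66.9, 62.6 and 63.5 CPM. Their log2 fold changes were -0.018 ± 0.11 (SE, edgeR adjusted p = 0.906) and 0.24 ± 0.12 (SE, edgeR adjusted p = 0.1003), and the 6 tested subunit genes ranged from -0.23 (*EMF2*) to 0.24 (*SWN*). Cell cycle genes changed little for the most part. In the list of cycle entry and DNA replication 2 of 24 were higher and 3 lower (median 0.31), against 19.7% and 20.7% of all tested genes. The number of higher genes in it was not stable, at 1 without WT-A replicate 2, WT-A replicate 3 or WT-M replicate 2 and at 5 with RLE size factors, DESeq2, no filter on low counts, the stricter filter or the 6 libraries alone. The lower ones were D-type cyclins, with *CYCD3;2* at 174, 169 and 160.1 CPM in WT-M and 38.6, 45.0 and 42.0 CPM in WT-A (-2.01 ± 0.20, SE), *CYCD6;1* at -2.32 and *CYCD1;1* at -1.48. *DPA*, a partner of the E2F factors, rose by 0.90. In the G2 and mitosis list 5 of 26 were higher and 1 lower (median 0.19), the former including *CYCB1;3* (1.37), *CYCB2;2* (1.03), *CYCB2;1* (1.03) and *CDKB1;1* (0.94). Of the inhibitors of cyclin-dependent kinases and endocycle genes 1 of 15 was higher and 5 were lower (3 without WT-A replicate 1 or WT-M replicate 3), with *KRP7* falling from 7.41, 6.74 and 6.003 to 1.08, 1.05 and 1.77 CPM (-2.37) and *KRP3* by 1.06. The calls of *SMR4* (0.91) and *KRP1* (-0.86) were lost without WT-A replicate 3 (0.65, edgeR adjusted p = 0.182 and -0.82, edgeR adjusted p = 0.0889), and each also without 3 other single libraries.

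Of the 13 AP2/ERF genes listed for wounding and regeneration, only 6 matched a counted gene by name. *WIND2*, *WIND3*, *WIND4*, *ERF108*, *ERF109*, *ERF113* and *ERF114* did not, so the list covers a part of these factors. Of the 6 tested genes 3 were called higher and 0 lower (median 1.67), in plants that had not been cut. *DRNL*, given above among the boundary genes, is 1 of the 3. *ERF115*, which renews root stem cells after damage, had 2 counts in WT-M and 7.55, 12.1 and 8.01 CPM in WT-A, higher by 211-fold (95% counting interval 58.0 to 1748). *RAP2.6L*, known from wound healing and shoot regeneration, went from 6.79, 3.59 and 4.42 to 38.2, 50.7 and 38.6 CPM (3.12 ± 0.20, SE). The wound-induced gene *WIND1* was not called, at 162 ± 13.2 CPM in WT-M and 240.1 ± 28.9 CPM in WT-A (mean ± SD, log2 fold change 0.56). The list of cytosolic ribosomal proteins held only 27 genes, found by a set wording in their annotation. Genes of this class described in other words were left out. Of its 22 tested genes 6 were higher and 2 lower (median log2 fold change 0.52), against 19.7% and 20.7% of all tested genes. *AT3G44590*, a gene of an acidic stalk protein, rose from 62.8, 61.2 and 63.7 to 93.4, 103 and 115 CPM (0.73), and its relative *AT3G28500* fell by 1.80, while *RPSAb* and *AT5G57060* rose by 0.87 and 0.74.

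Photosynthesis genes fell as a group. Of the nuclear genes for photosystems and light harvesting, 0 of the 42 tested genes were called higher and 37 lower (median -1.79), and all 14 genes of carbon fixation were lower (median -3.15). All of the leaf tissue markers given above belong to these lists, so their fall is not a separate observation. The photosynthesis lists took 3.15% to 3.74% of counts in WT-M and 0.652% to 0.95% in WT-A. *LHCA6*, an antenna protein of photosystem I, fell from 28.6, 37.9 and 24.8 to 2.3, 1.05 and 0.883 CPM (-4.45 ± 0.36, SE, edgeR adjusted p = 1.05e-11). *LHCB1.2*, a main antenna protein of photosystem II, fell from 707, 524 and 435 to 92.2, 56.9 and 90.2 CPM (-2.81) and *PSBO2*, a subunit of the oxygen-evolving complex, from 284, 338 and 307 to 67.7, 40.8 and 45.0 CPM (-2.61). *LHCB2.3* had a log2 fold change of -3.59. The largest falls were in carbonic anhydrases, which supply carbon dioxide and bicarbonate, with *CA1* going from 211, 371 and 286 to 3.89, 3.09 and 1.70 CPM (-6.65 ± 0.67, SE) and *CA2* from 144, 189 and 157 to 5.40, 3.56 and 2.31 CPM (-5.46). The small subunit genes of Rubisco, *RBCS2B* (-5.05) and *RBCS1B* (-4.96), fell, but their exons share sequence with relatives and reads in shared stretches cannot be assigned (16.9% and 12% of their 50-base words, and 10.6% in *LHCB1.2*, occur elsewhere).

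Counts of plastid genome genes did not fall to the same extent, but their share varied between libraries of a group. It was 0.174%, 0.204% and 0.389% of counts in WT-M and 0.103%, 0.491% and 0.241% in WT-A. How far this share follows library preparation rather than expression was not tested, which limits the comparison with nuclear genes. None of the 85 tested plastid genes was higher and 10 were lower (median -0.042). Only 3 were lower without WT-A replicate 1 or WT-M replicate 3 and 4 without WT-A replicate 3, and the median was -0.59 without WT-A replicate 2. Among the 10 was *ATCG01020* from 2.39, 4.64 and 2.90 to 1.01, 0.461 and 0.815 CPM (-2.14). The calls of *ATCG01200*, *ATCG01190* and *ATCG00930* (-1.57, -1.5 and -1.48) were lost without WT-A replicate 1 (adjusted p in edgeR of 0.075, 0.0666 and 0.0811). Of 29 tested mitochondrial genes 15 were higher (median 1.31), but only 5 without WT-A replicate 2 and 9 without WT-M replicate 1 or WT-M replicate 2. *ATMG00020*, which is a ribosomal RNA gene, had 122, 123 and 215 CPM in WT-M and 261, 1744 and 727 CPM in WT-A, and without that library its log2 fold change went from 2.58 to 1.67 (edgeR adjusted p = 0.0953). *ATMG00030*, *ATMG01130* and *ATMG01390* likewise lost their calls without it (log2 fold changes of 1.73, 1.96 and 1.58 against 2.43, 2.81 and 2.42 with it). WT-A replicate 2 is the library with the highest share of ribosomal RNA, given above.

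Synthesis of other hormones shifted at the level of their genes. For ethylene, 9 of the 12 tested genes were called higher and 0 lower (median 2.97). *ACS8*, a gene of the rate-limiting ACC synthase, had 0.154, 0.166 and 0.207 CPM in WT-M and 204, 199 and 208 CPM in WT-A (10.10 ± 0.42, SE, edgeR adjusted p = 2.95e-17). Its relatives *ACS4*, with 2 counts under mock, and *ACS11* and *ACS2* were higher too, *ACS4* by 168-fold (95% counting interval 46.1 to 1392) and the others by 4.99 and 4.61 on the log2 scale. In the abscisic acid list, 6 of the 12 tested genes were called higher and 1 lower (median 1.03). *NCED5*, which encodes the dioxygenase that commits carotenoids to abscisic acid, went from 0.309, 0.111 and 0.207 to 87.8, 77.8 and 93.0 CPM (8.69 ± 0.51, SE) and *NCED2* from 0.772, 0.884 and 0.690 to 11.4, 9.42 and 5.50 CPM (3.45). *NCED3*, the stress-induced member, was uneven in WT-A at 92.2, 33.6 and 15.1 CPM against 10.2, 11.7 and 8.49 CPM, and its change of 2.19 became 1.27 (edgeR adjusted p = 0.15) without WT-A replicate 1. *CYP707A4*, an abscisic acid hydroxylase, fell by 3.81.

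Among gibberellin genes 4 of 11 were higher and 1 lower (median 0.84), with a gene of either kind among the higher ones. *GA2OX8*, which inactivates gibberellin, went from 0.154, 0.0553 and 0.0690 to 14.0, 8.36 and 28.2 CPM (7.43 ± 0.80, SE), and *GA20OX1*, which makes it, from 1.08, 0.995 and 0.621 to 33.4, 17.6 and 31.6 CPM (4.91 ± 0.45, SE). *GA20OX2* (1.66) and *GA2OX1* (-2.41) were called although the libraries of the groups overlapped, and *GA2OX1* lost its call without WT-M replicate 1 (-1.19, edgeR adjusted p = 0.301), WT-A replicate 2 or WT-A replicate 3. In the list of cytokinin synthesis and breakdown, 9 of the 18 tested genes were called higher and 4 lower (median 0.96). *LOG5*, whose enzyme releases active cytokinin, had 6.95, 6.24 and 7.73 CPM in WT-M and 137, 91.9 and 45.7 CPM in WT-A (3.70). *CKX3*, a cytokinin oxidase gene, rose from 0.232, 0.166 and 0.552 to 8.56, 7.57 and 7.54 CPM (4.63), while *CKX4* fell by 3.93 and *CYP735A2*, which makes trans-zeatin, was lower by 22.6-fold (95% counting interval 5.92 to 192). The type-A response regulators, which cytokinin induces and which damp its signal, were 1 higher and 3 lower of 9 (median -1.12). *ARR15* fell from 6.18, 11 and 6.76 to 0.719, 0.724 and 1.49 CPM (-3.03) and *ARR16* by 2.86, while *ARR3* was the single higher member (2.82), at a mean of 0.0717 CPM in WT-M and 0.527 CPM in WT-A, and its call was lost without WT-M replicate 2. *ARR6* had overlapping groups and lost its call of -1.5 without WT-M replicate 2 (-0.74, edgeR adjusted p = 0.331), WT-A replicate 1 or WT-A replicate 2. For brassinosteroids 4 of 12 genes were higher and 4 lower (median -0.069), with the inactivating enzymes *BAS1* (2.18) and *SOB7* (2.09) and the synthetic enzyme *DWF4* (1.47) higher and *DWF1* lower (-0.81).

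Defence pathways moved in opposite directions. Of the jasmonate genes, 1 of the 24 tested genes was called higher and 19 lower (median -2.72), and of the salicylic acid genes, 15 of the 17 tested genes were called higher and 1 lower (median 3.31). The single higher jasmonate gene was *AOC4*, a cyclase of its synthesis (0.88). *LOX2*, a lipoxygenase gene at the start of jasmonate synthesis in leaves, had 39.4, 273 and 353 CPM in WT-M and 2.23, 1.78 and 4.62 CPM in WT-A (-6.27 ± 0.95, SE, edgeR adjusted p = 1.92e-06). *JAZ9*, a jasmonate-induced repressor gene, fell from 411, 362 and 99.9 to 7.55, 5.73 and 5.09 CPM (-5.58 ± 0.63, SE). The mock libraries differed widely in this pathway, with *JAZ7* at 17.1, 1.71 and 0.414 CPM and *JAZ8* at 5.25, 1.38 and 0.345 CPM, but all lay above WT-A, where *JAZ7* stood at 0.144, 0.198 and 0 CPM. *FMO1*, which makes the systemic resistance signal N-hydroxypipecolic acid, had no count in WT-M and 61.6, 50.7 and 22.5 CPM in WT-A, at least 678-fold higher. *PBS3*, a *GH3* family gene whose enzyme acts in salicylic acid synthesis, went from 0.618, 0.497 and 0.552 to 127, 116 and 84.5 CPM (7.60 ± 0.33, SE, edgeR adjusted p = 5.18e-17). *AIG1*, a gene induced in resistance to bacteria, went from 0.540, 0.276 and 0.207 to 80.7, 64.9 and 50.4 CPM (7.58), and *WRKY38*, a salicylic acid-induced factor, from 0.309, 0 and 0 to 35.1, 25.5 and 25.9 CPM (8.20). The classical marker *PR1* went from 9.70 ± 12.2 to 296 ± 74.7 CPM (mean ± SD), and *EPS1* was the single lower member (-1.05).

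Plant defensins, which ethylene and jasmonate induce together, were lower in 4 of 10 tested genes of their list and higher in 1, the chitinase gene *CHIB* (median -0.64). *PDF1.2b* had 3.01, 1.11 and 1.52 CPM in WT-M and no count in WT-A, at least 26.0-fold lower, *PDF1.2c* was lower by 75-fold (95% counting interval 20.4 to 625) and *PDF1.3* by 60.1-fold (95% counting interval 16.3 to 502). *PDF1.2* went from 8.57, 3.76 and 5.24 to 0.0719, 0.198 and 0.136 CPM (-5.33). With the 6 libraries alone the median of the list was -3.33, and without WT-M replicate 1 it had 2 genes higher. These genes are close paralogues, so that the values of single members are uncertain where reads could be shared. In the *WRKY* family 26 of 65 were higher and 10 lower (median 0.40). *WRKY63* and *WRKY62* each had 1 count under mock and were higher by 738-fold (95% counting interval 132 to 29189.7) and 571-fold (95% counting interval 102 to 22579.8), and *WRKY51* rose from 1.47, 1.77 and 2.14 to 58.7, 44.7 and 35.8 CPM (4.68).

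The lowest median of any list was that of the synthesis of aliphatic glucosinolates, the sulphur-rich defence compounds made from methionine. In this list, 1 of the 18 tested genes was called higher and 14 lower (median -5.78). The 8 genes with the largest fall among those with at least 10 counts in WT-A were *CYP79F1*, *MYB29*, *HMT3*, *BCAT4*, *GSTF11*, *IPMI1*, *MAM1* and *FMOGS-OX1*, which all belong to this pathway or are coexpressed with it. *MYB29*, which with *MYB28* and *MYB76* switches the pathway on, fell from 87.2, 104 and 86.5 to 0.288, 0.263 and 0.272 CPM (-8.36 ± 0.63, SE, edgeR adjusted p = 2.64e-12), and *MYB76* was lower by 240.2-fold (95% counting interval 81.9 to 1167). *CYP79F1*, the first enzyme of the core structure, fell from 825, 919 and 750.3 to 4.1, 1.51 and 1.56 CPM (-8.46 ± 0.89, SE, edgeR adjusted p = 2.66e-09). *BCAT4*, *MAM1* and *IPMI1*, which lengthen the side chain of methionine, went from 906, 1100.1 and 1038 to 7.27, 1.12 and 3.19 CPM (-8.06), from 1474, 1766 and 1644 to 15.3, 2.17 and 7.40 CPM (-7.64) and from 266, 299 and 176 to 2.37, 0.658 and 0.679 CPM (-7.67). *FMOGS-OX1*, which oxidises the side chain, fell by 7.41, and *HMT3*, a homocysteine methyltransferase gene that makes methionine, by 8.18. In these 6 enzyme genes WT-A replicate 1 was the highest of the treated libraries, and it still lay far below every mock library. The single higher member was *FMOGS-OX4*, from 5.18 ± 1.33 to 59.8 ± 29.3 CPM (mean ± SD). The indole branch and camalexin, which start from tryptophan, had 5 of 16 higher and 4 lower (median 0.59). *PAD3*, the last enzyme of camalexin, rose from 0.772, 1.16 and 2.83 to 89.8, 105 and 89.0 CPM (5.89 ± 0.72, SE), and *CYP71A13* (5.09) and *CYP71A12* (4.61) of the same pathway rose, while *MYB34*, a regulator of indole glucosinolates, fell by 3.39.

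Flavonoid genes were 2 higher and 9 lower of 16 (median -1.45). *DFR*, which leads to anthocyanins, fell from 19.1, 25 and 61.0 to 2.09, 1.51 and 3.6 CPM (-3.87) and *UF3GT*, which glycosylates them, from 3.55, 8.62 and 18.5 to 0.504, 0.593 and 1.15 CPM (-3.75). The flavonol regulators *MYB111* and *MYB11* went apart, the former lower by 4.61 and the latter higher by 5.63 on the log2 scale. Glutathione transferases, many of which conjugate foreign compounds, were 17 higher and 9 lower of 38 (median 0.91). *GSTU11* rose from 0.0772, 0.221 and 0.138 to 14.2, 15.3 and 8.69 CPM (6.30) and *GSTU9* by 4.39. *GSTF11* and *GSTU20*, which are coexpressed with aliphatic glucosinolate genes, fell, *GSTU20* from 1905, 1958 and 1885 to 79.1, 29.5 and 54.1 CPM (-5.16 ± 0.30, SE) and *GSTF11* by 7.70. In the RefSeq annotation all of the exon length of *GSTF11* overlaps another gene. Since the library kit does not mark strand, reads of that gene may be part of its value. The authors counted reads with the TAIR10 annotation, in which this overlap was not checked.

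Cell wall genes divided by member. Of the expansins, 7 of the 24 tested genes were called higher and 2 lower, with 1 lower without WT-A replicate 2 (median 0.74, or 0.58 with genes at 0 set at their bound). Of the XTH family, which cuts and rejoins xyloglucan, 8 of the 26 tested genes were called higher and 4 lower (median 0.51). Over all tested genes 19.7% were called higher and 20.7% lower, so the shares of higher members were not far from this background. *EXPA4* rose from 128, 132 and 158 to 707, 966 and 861 CPM (2.6 ± 0.25, SE) and *EXLB1* from 16.6, 11.4 and 14.4 to 298, 197 and 278 CPM (4.18). *EXPA17*, a target of LBD18 in lateral root emergence, rose by 4.14 and *EXPA14* by 2.63. *XTH20* and *XTH19*, known from the rejoining of cut stems, were higher, *XTH20* by 898-fold (95% counting interval 248 to 7417) from 2 counts in WT-M and *XTH19* from 4.32, 9.17 and 7.25 to 179.7, 181 and 338 CPM (5.05). *XTH11* rose by 4.37 and *XTH6* fell by 4.45.

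Outside the lists, other genes were named by the size of their change alone. *E12A11* (AT1G18100), the gene also known as *MOTHER OF FT AND TFL1*, which acts in seed germination, went from 0.618, 0.553 and 0.276 to 174, 257 and 169 CPM (8.66 ± 0.42, SE, edgeR adjusted p = 3.49e-16). *LTP4*, a lipid transfer protein gene, went from 1.62, 2.71 and 0.966 to 435, 333 and 358 CPM (7.67), *AT1G30760*, annotated in the berberine bridge enzyme family, from 0.618, 1.16 and 1.04 to 263, 229 and 245 CPM (7.98), and *AT5G52390*, annotated as a PAR1 protein gene, from 0.463, 1.27 and 1.66 to 253, 350.2 and 320.2 CPM (8.04). In these 4 genes every WT-A library was above every WT-M library. Genes with no count in WT-M included *PGAZAT*, a polygalacturonase gene of the ADPG2 type, which cuts pectin where cells separate, at 27.1, 27.3 and 19.5 CPM in WT-A (at least 374-fold higher). *AT1G70270*, annotated as a transcription factor, stood at 18.1, 21.2 and 32 CPM (at least 362-fold) and *AT5G04120*, of the phosphoglycerate mutase family, at 19.1, 15.4 and 23.0 CPM (at least 291-fold). In the other direction *MSRB6*, a methionine sulfoxide reductase gene, had 3.01, 7.24 and 8.004 CPM in WT-M and no count in WT-A, at least 91.7-fold lower. *AT5G40348*, an antisense RNA gene, *AT3G16670*, of the pollen allergen and extensin family, and *AT3G45700*, a transporter gene of the major facilitator superfamily, were at least 43.3-fold, 22.8-fold and 19.6-fold lower by the same measure. In the RefSeq annotation over 10% of the exon length overlaps another gene in *AT5G40348*, *E12A11*, *BCAT4*, *PLT3*, *CRN*, *BAM2*, *SEP1*, *CYCD6;1*, *LHCB2.3*, *CA1*, *ARR6*, *SOB7* and *CYP71A13*, so that reads of the neighbour may be part of their values.

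**Figure D3:**
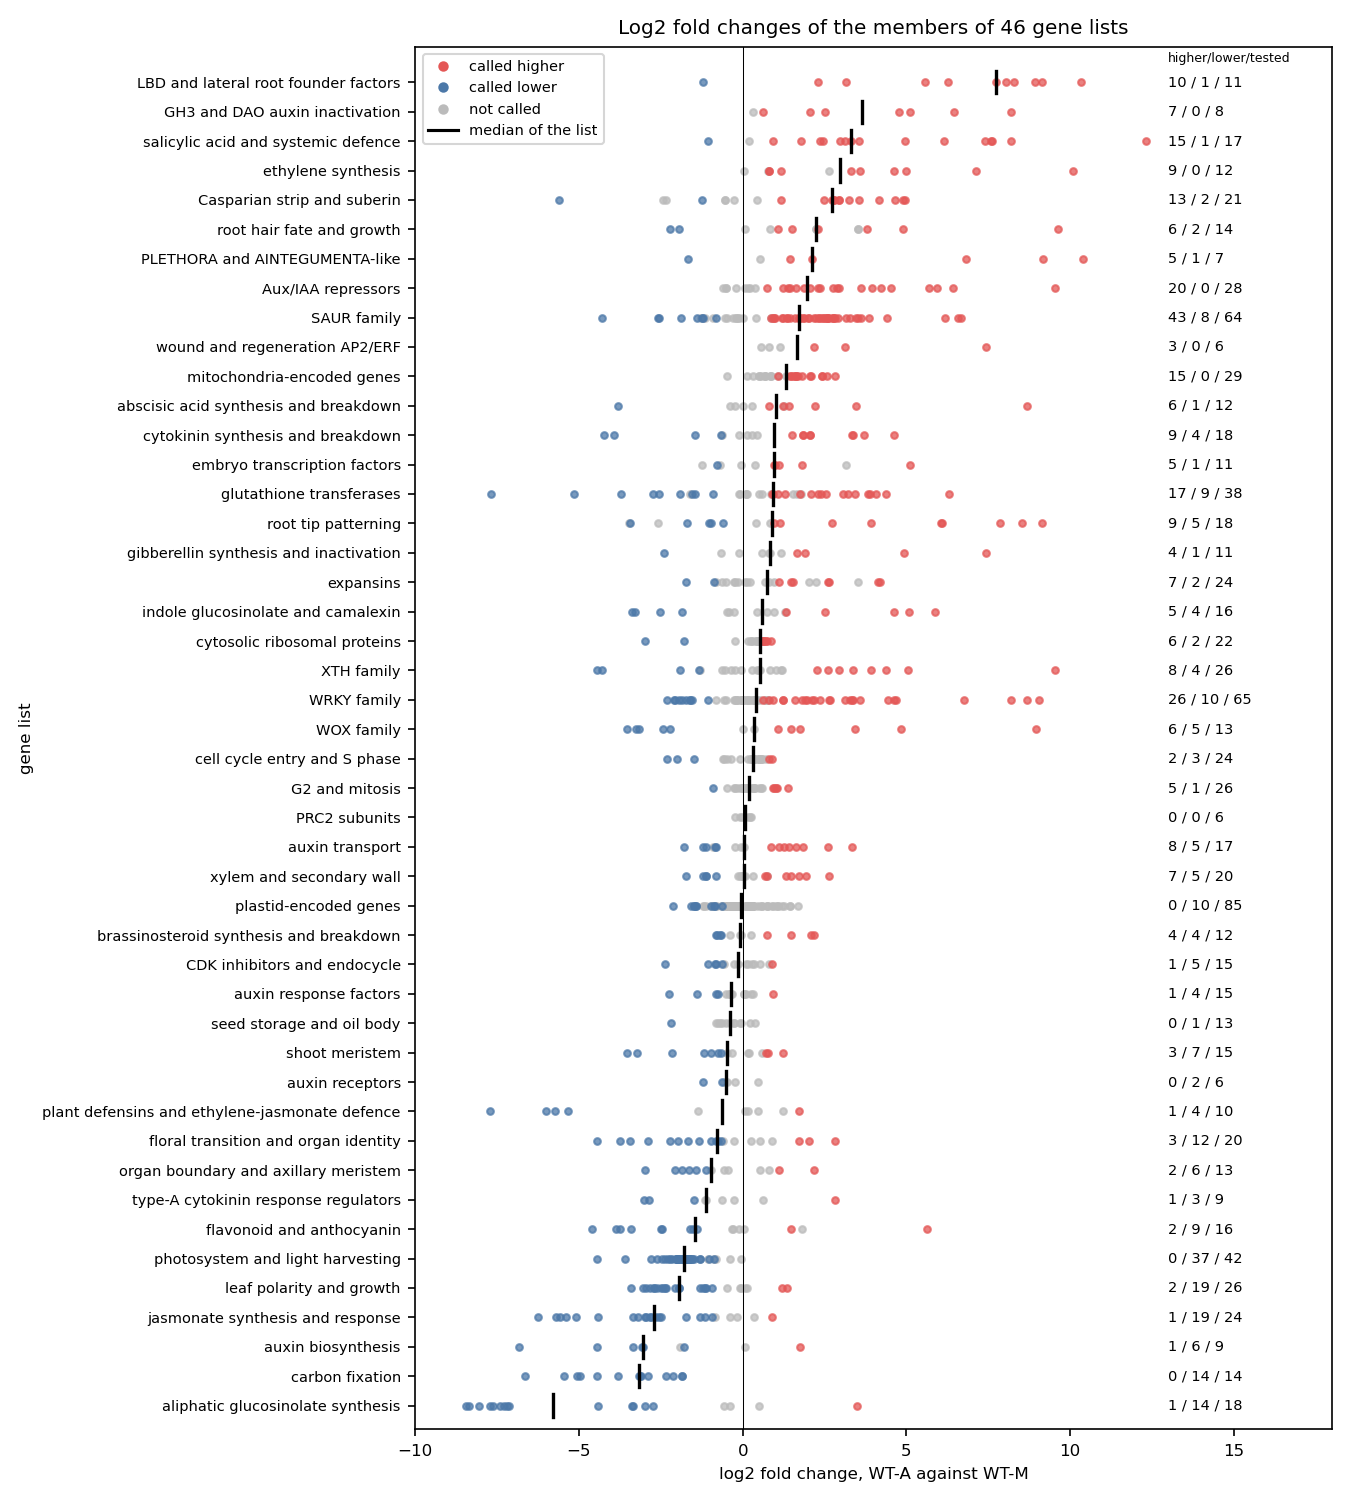
Log2 fold change of WT-A against WT-M (x axis) for every tested member of 46 gene lists (y axis), with called higher members in red, called lower in blue, uncalled in grey, the median of each list as a black bar and its counts at the right. Lists run from LBD and lateral root founder factors with a median of 7.73 at the top to aliphatic glucosinolate synthesis with -5.78 at the bottom, and values of genes at 0 in a group are fitted values that depend on the prior count.

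The 2,4-D treatment was also given to intact *clf swn* seedlings, which allowed the wild-type response to be set against that of plants without these methyltransferases. In the mutant *CLF* stood at 0.995, 1.23 and 1.66 CPM in *cs*-M and 1.42, 1.6 and 1.23 CPM in *cs*-A, well below wild type, and *SWN* at 27.2, 23.8 and 27.0 CPM and 31.8, 32.4 and 33.3 CPM. In *clf swn* 1229 genes (5.82%) were called higher with 2,4-D and 1340 (6.35%) lower. The difference of the responses, WT-A minus WT-M less *cs*-A minus *cs*-M, passed the edgeR test at an adjusted p under 0.05 for 9452 genes, 44.8% of those tested. No limit on the fold change was set here, so this share cannot be compared with those of called genes. The wild-type log2 fold change was the more positive in 4398 of the 9452 genes and the more negative in 5054. Of the 23 developmental genes discussed in the study, of which 13 were higher and 3 lower in WT-A than in WT-M, 14 passed. The responses of *LBD16*, *WOX5*, *TMO6* and *LBD18* were larger in wild type. *LBD16* stood at 1.78, 1.89 and 1.92 CPM in *cs*-M and 20.1, 16.8 and 17.5 CPM in *cs*-A (difference 4.80, edgeR adjusted p = 4.95e-09). *WOX5* had 3.70, 3.37 and 2.89 CPM and 11.3, 8.44 and 9.78 CPM (difference 1.90, edgeR adjusted p = 3.12e-06), *TMO6* differed by 1.04 and *LBD18* by 1.86. The *LBD18* difference was lost without *cs*-M replicate 1 (1.48, edgeR adjusted p = 0.0663). For *PLT2* the difference of 5.64 rested on 1 mock library of the mutant, since without *cs*-M replicate 2 both mock groups were at 0 and it could not be estimated in that fit. *PLT1* was at 0 in both mock groups, with 1.08, 2.56 and 1.3 CPM in *cs*-A, and *LBD29* had no count in *cs*-M or *cs*-A. The difference could not be estimated for either gene in edgeR, while DESeq2 gave *LBD29* a difference of 8.96 (DESeq2 adjusted p = 1.85e-04).

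*BBM* was present in the mutant without auxin. It stood at 10.9, 15.7 and 17.6 CPM in *cs*-M and 13.6, 29.6 and 31.0 CPM in *cs*-A, all above the 4.21 to 8.71 CPM of WT-A. On the log2 scale the response was larger in wild type (difference 6.08, edgeR adjusted p = 1.78e-07). In CPM the mean went from 0.0442 to 5.95 in wild type and from 14.7 to 24.7 in the mutant. The differences of *AGL15* and *LEC1* are likewise on the log2 scale, with lower mock levels in wild type. *AGL15* stood at 26.7, 35.9 and 40.7 CPM in *cs*-M and 35.8, 59.3 and 61.4 CPM in *cs*-A (difference 1.22, edgeR adjusted p = 0.00472). *LEC1* (difference 4.74, edgeR adjusted p = 0.00198) had 2.63, 2.55 and 1.92 CPM in *cs*-M and 2.43, 3.21 and 3.77 CPM in *cs*-A against no count in WT-M. *WUS*, *CUC2*, *DRN* and *ARF5* differed the other way. *WUS* stood at 1.35, 1.07 and 1.22 CPM in *cs*-M and 1.82, 3.21 and 2.1 CPM in *cs*-A (difference -4.48, edgeR adjusted p = 9.97e-05), and *CUC2* at 24.7, 20.3 and 21.3 CPM and 17.2, 17.1 and 16.4 CPM (difference -1.66, edgeR adjusted p = 3.48e-05). *DRN* (difference -2.19, edgeR adjusted p = 0.00563) and *ARF5* (difference -0.96, edgeR adjusted p = 6.05e-06) rose in the mutant, *ARF5* from 141, 129 and 132 CPM in *cs*-M to 321, 330.0 and 302 CPM in *cs*-A. *DRNL* (-1.93, edgeR adjusted p = 0.0193) and *CUC3* (-1.58, edgeR adjusted p = 0.0202) passed as well, but both lost the call without WT-M replicate 3 (adjusted p in edgeR of 0.102 and 0.116), and *DRNL* without *cs*-M replicate 3 or *CUC3* without WT-A replicate 2. *STM*, *CUC1*, *LEC2*, *FUS3*, *ABI3*, *ABI4* and *ABI5* did not pass, with adjusted p from edgeR between 0.103 (*LEC2*) and 0.452 (*FUS3*). Of these, *STM* passed without WT-M replicate 3 (0.46, edgeR adjusted p = 0.0312) and *ABI3* without WT-M replicate 2 (1.22, edgeR adjusted p = 0.0362).

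**Figure D4:**
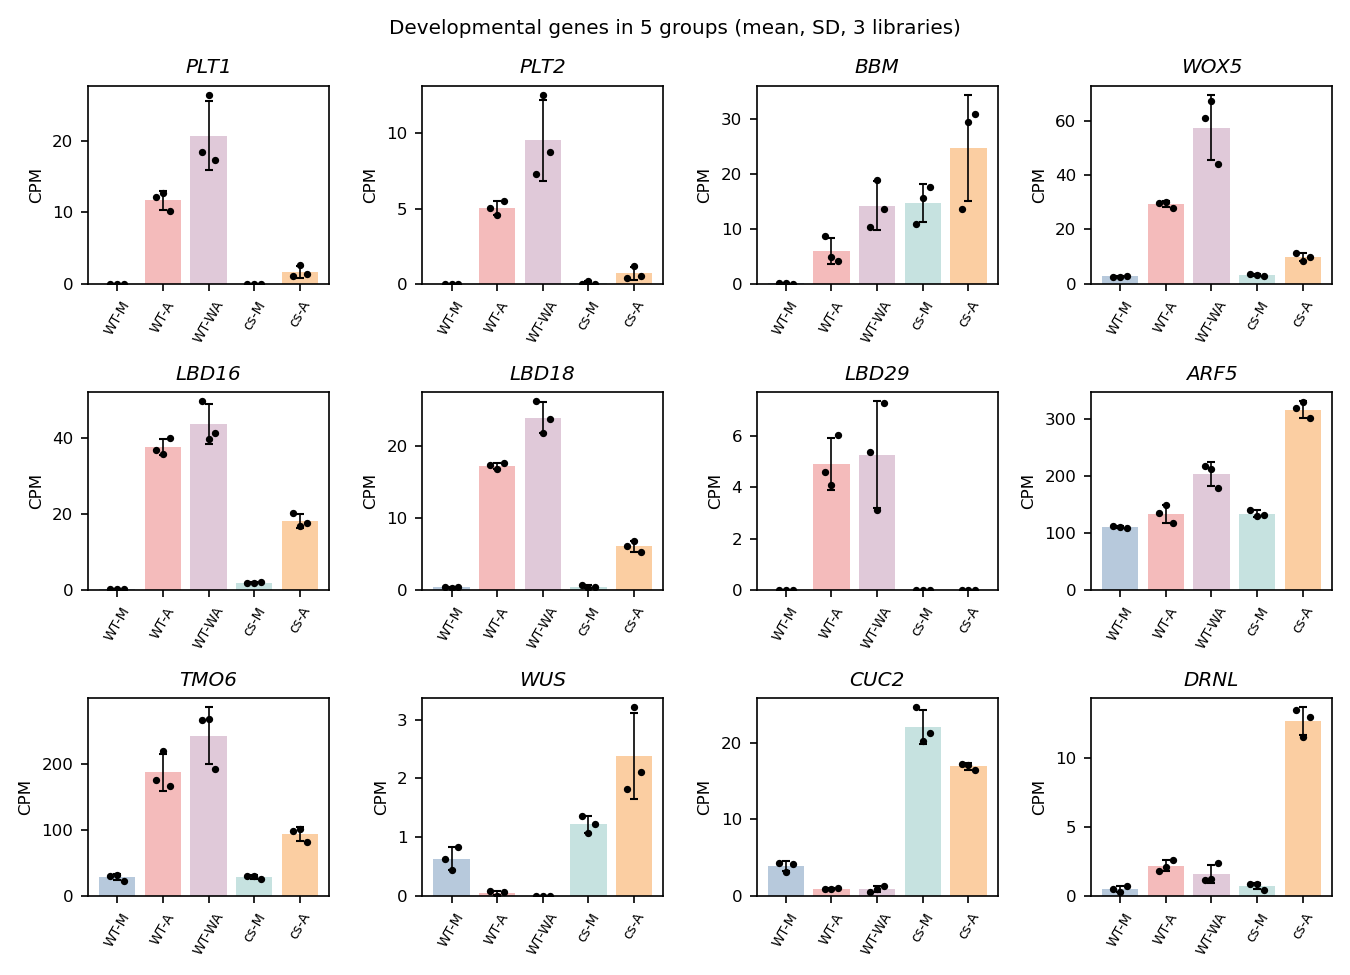
Level of 12 developmental genes in CPM (linear axes from 0) in WT-M, WT-A, WT-WA, *cs*-M and *cs*-A, with bars at the mean of 3 libraries, error bars of 1 SD and 1 point per library. *LBD29* has no count in *cs*-M and *cs*-A, *BBM* is present in *cs*-M, and *WUS* is at 0 in all 3 libraries of WT-WA.

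Cutting the shoots before the same 2,4-D treatment added a smaller set of changes. Between WT-WA and WT-A 264 genes (1.25%) were called higher with wounding and 1011 (4.79%) lower, the comparison sharing the WT-A libraries with that against mock. The counts rest in part on single libraries, with 127 and 506 without WT-A replicate 1, 139 higher without WT-A replicate 3, and 164 and 661 without WT-WA replicate 1. Some lists of root regulators were somewhat higher after wounding. In the PLETHORA and AINTEGUMENTA-like list 3 of 7 were higher and 0 lower. The root tip list had 4 of 18 higher and 1 lower, and the root hair list 5 of 14 higher and 2 lower. Other root lists did not follow. The lateral root founder list had 0 of 11 higher and 1 lower, and the suberin and Casparian strip list 0 of 21 higher and 2 lower. In the *WOX* family 1 of 13 was higher and 1 lower. *BBM* had 10.3, 19.0 and 13.6 CPM in WT-WA (1.27 above WT-A on the log2 scale) and *WOX5* 61.1, 67.1 and 44.2 CPM (0.97). *PLT1* at 18.5, 26.4 and 17.4 CPM and *PLT2* at 7.31, 12.5 and 8.78 CPM lay above their WT-A libraries without passing the call. *WOX11* was lower with wounding (-0.65). Photosynthesis genes fell further, with 0 of 42 higher and 22 lower among photosystem genes and 0 of 14 higher and 8 lower among carbon fixation genes. In the *SAUR* family the wounded explants had 0 of 64 higher and 17 lower, and in the *Aux/IAA* list 0 of 28 higher and 4 lower. Jasmonate genes were not called in either direction, and 2 of 17 salicylic acid genes, *PR5* and *AIG1*, were higher. *ERF115* was higher by 1.11 with wounding, the single gene called among the 6 tested of its list of wounding and regeneration factors.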

How the data were processed

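Counts of uniquely aligned reads per gene were deposited by the authors for 35 libraries of 10 groups, prepared with a kit that does not mark strand and aligned to TAIR10. Per the labels and methods they used Trimmomatic 0.32, TopHat2 2.0.10 and HTSeq, with FastQC for quality. All values here start from the deposited counts. edgeR 4.0.16 (R 4.3.3, limma 3.58.1) was fitted to all 35 libraries as 10 groups after filterByExpr and TMM scaling, with quasi-likelihood tests and Benjamini-Hochberg adjustment over 21115 genes. The p-values rest on a spread estimated over all 10 groups, for the most part between libraries of experiments performed at different times. In the untreated groups some libraries share a replicate number and were treated as independent. The main fit has no term for the replicate. Levels are CPM over all counted reads of a library, with totals of 11375703 to 18094983 counts over all libraries, which limits the precision of genes with few counts.

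The gene lists, the motifs and the rule for named genes were chosen with earlier results of these data known, so no list was tested as a set and its counts stand beside those of all genes. Named were the 8 largest changes in each direction (at least 10 counts over the lower group and a mean of 10 CPM in the higher), up to 5 genes at 0 in a group in each direction, up to 4 called members of each list with a mean of at least 1 CPM, 23 developmental genes of the study, and *CLF* and *SWN*. Other members given as examples were picked after their values were seen. Of the listed symbols 26 matched no counted gene, and names came from RefSeq (TAIR10.1) for 28009 of 28775 genes. A gene at 0 in a group was compared with a floor of 3 counts over its 3 libraries. Intervals are exact at 95% and cover counting error only, since reads without molecular identifiers are not independent molecules.

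Replicate numbers mark batches, since libraries of a replicate were made together and shared a sequencing lane. Deviations from the group means of WT-A and WT-M correlated at 0.101, -0.026 and 0.062 for replicates 1, 2 and 3, those of WT-WA and WT-A at 0.43, 0.482 and 0.574 and those of *cs*-A and *cs*-M at 0.253, 0.137 and 0.0579. Alternatives were other scaling and filters, DESeq2 1.42.0, the replicate block, the 6 libraries alone, other thresholds and leaving out each library. The fit was also run on simulated counts in which a small set of genes was changed, in WT-A alone. That run cannot check the scaling or the calls under a response as broad as the one here.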

Additional observations from a re-analysis of the deposited data

Results flagged for a closer look

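The responses of wild type and *clf swn* to 2,4-D differed for 9452 genes by the test of the difference itself, with no limit on the fold change. Among the developmental genes the wild-type log2 fold change was the larger by 5.64 for *PLT2*, 6.08 for *BBM*, 1.90 for *WOX5*, 4.80 for *LBD16*, 1.86 for *LBD18*, 1.04 for *TMO6*, 1.22 for *AGL15* and 4.74 for *LEC1*. The difference, wild type minus mutant, was -0.96 for *ARF5*, -4.48 for *WUS*, -1.66 for *CUC2*, -1.58 for *CUC3*, -2.19 for *DRN* and -1.93 for *DRNL*. Those of *PLT2*, *LBD18*, *CUC3* and *DRNL* did not pass when certain single libraries were left out, as given above. *PLT2* and *LEC1* had no count in WT-M, so that the size of their difference depends on the prior count of the fit. Over all genes 720 of those tested had a group at 0 among the 4 groups, and 106 of these passed. The groups have 3 libraries each, too few to screen for single outlying libraries.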

How the results depend on the processing

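In WT-A against WT-M, leaving out single libraries gave 3848 to 4196 higher and 4147 to 4380 lower genes, and the other alternatives 2829 to 6293 and 2928 to 6290. The upper ends, 6293 and 6290, came from the adjusted p alone with no limit on the fold change. With the replicate block the counts were 4182 and 4385, and the block changed no call of the 201 named genes. No gene called in the main comparison was called in the opposite direction under any alternative, and no scaling moved the median gene by more than 0.05 on the log2 scale. Over the named genes and all alternatives that could be fitted, 2650 values kept their direction and call, 42 lost the call, 2 gained it and 7 changed sign. The sign changes were all of *CLF*, which was never called and lay at 0.0193 with RLE size factors, 0.0191 in DESeq2, 0.0186 with no filter, 0.0319 with at least 10 counts in every library, and between -0.0711 and 0.00682 when single libraries were left out (a sign change in 3 of 6). With the block the other comparisons had 297 higher and 1088 lower genes (WT-WA against WT-A) and 9756 (interaction). For the 46 lists, the count of higher members moved by over 1.5 times in 49 cases and not in 595, that of lower members in 47 and not in 597, and the median moved by more than its spread in 71 and not in 573. The stricter filter lowered the lateral root founder list from 10 higher genes to 2, because genes near 0 in WT-M are then not tested, and its median to 2.36. With the 6 libraries alone the medians of the auxin transport and *WOX* lists were 0.45 and 1.48. In WT-WA against WT-A, leaving out single libraries gave 127 to 303 higher and 506 to 1170 lower genes. The interaction had 8575 to 9215 genes with single libraries left out and 8303 to 9756 otherwise. The causes of these differences were not tested, except that the stricter filter tests fewer genes. At this depth a gene at 0 in a group of 3 libraries may still have a level of up to 3 counts over the group.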
